A study of Mus musculus with 12 samples.

Results

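Rod phototransduction cascade genes encode the proteins that turn the capture of a photon in a rod into an electrical signal. The 9 genes described here were chosen by symbol as the subunits of rod transducin (Gnat1, Gnb1, Gngt1), of the rod phosphodiesterase (Pde6a, Pde6b, Pde6g), of the rod cyclic nucleotide-gated channel (Cnga1, Cngb1) and rod arrestin (Sag), and all 9 were measured among the 24570 named genes of the table. The retinas came from male C57BL/6J mice, each whole retina on an array of its own. The 6 diabetic animals received streptozotocin, a toxin of insulin-producing cells, by intraperitoneal injection at 160 mg/kg when they were 8 weeks old and weighed 24 to 26 g, and their stable hyperglycaemia (blood glucose over 15 mM) was checked after 7 days. The 6 controls were normoglycaemic, of the same strain and without streptozotocin, and both groups were ended at 6 weeks. Their age at the end is not settled here, because the series text gives 6 weeks, less than the age at injection. The chemical model leaves insulin deficiency and any direct action of the toxin together, and a whole retina mixes rods with all other retinal cells.

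In the dark, cyclic GMP holds the channel of the rod outer segment open. Light activates the visual pigment, which switches on transducin, and its alpha subunit then frees the phosphodiesterase from its inhibitory gamma subunits, so that cyclic GMP is broken down and the channel closes. Arrestin binds the activated pigment and ends its signal. Cones run the same cascade with paralogous subunits, so each rod gene has a cone counterpart in the same retina. Gnb1 differs from the other members in that its product is also the beta subunit of G proteins in many other cell types.

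Promoters of photoreceptor genes are known to be bound by the homeodomain factor CRX, whose core motif is TAATCC, read as GGATTA on the other strand, and by the rod factor NRL, whose family binds half-sites such as TGCTGA. RefSeq promoter sequences of build GRCm38.p6 were matched for 6 of the 9 members (Gnb1, Gngt1, Pde6b, Cnga1, Cngb1 and Sag). In the 250 bases before the annotated start, TAATCC was found on either strand in 4 of these 6 and in 6.25% of all 32851 promoters searched, and TGCTGA in 2 of 6 (Sag and Pde6b) and in 16.1% of all. The matches of the 2 motifs did not overlap in these members. The stretches that hold the TAATCC matches are shown because 1 of them belongs to the member that passed the test below and the others to members that did not. Capitals mark the TAATCC core on either strand. The Gngt1 stretch lies at chr6:3993888-3994007 on the plus strand, that of Cngb1 at chr8:95306586-95306705 on the minus strand and that of Sag at chr1:87803560-87803679 on the plus strand, each covering the 120 bases before the start. The Cnga1 stretch lies at chr5:72642903-72643002 on the minus strand and holds the first 100 of the 250 bases searched.
Gngt1: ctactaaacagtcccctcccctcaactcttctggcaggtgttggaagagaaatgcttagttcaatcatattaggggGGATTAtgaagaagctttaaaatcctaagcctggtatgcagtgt
Cngb1: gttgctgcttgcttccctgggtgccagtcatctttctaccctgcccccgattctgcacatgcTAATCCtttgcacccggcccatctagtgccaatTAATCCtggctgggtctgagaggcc
Sag: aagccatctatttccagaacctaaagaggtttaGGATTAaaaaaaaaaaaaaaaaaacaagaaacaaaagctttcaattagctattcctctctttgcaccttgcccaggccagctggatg
Cnga1: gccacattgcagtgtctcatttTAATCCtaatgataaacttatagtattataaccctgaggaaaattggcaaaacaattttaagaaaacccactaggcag
The core begins 44 bases before the start in Gngt1, 87 in Sag and 228 in Cnga1, and it occurs at 58 and at 25 bases before the start in Cngb1. A match describes the letters of the window and does not show that a factor binds there.

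The 12 arrays correlated at 0.993 to 0.998 over all genes. The animals carry label numbers whose ranges do not overlap between the groups; should these mark cohorts or days, the cohort and the diabetes cannot be told apart. All values are log2 RMA values, and the test is limma, diabetic minus control, with p-values adjusted by Benjamini and Hochberg's method over the 24570 genes and called at or below 0.05. By this test 3.24% of all genes passed, 1.77% lower and 1.47% higher in diabetic retinas. Of the 9 members, 1 passed, Gngt1, and it fell. The median change of the members was -0.02, beside -0.0018 over all genes, and 6 of 9 had values below 0. At an unadjusted p under 0.05 there were 3 members, all lower (Gngt1, Pde6g and Cngb1), where 21.0% of all genes had such a p in either direction. All members had a mean above 9. Of the 2726 genes with a mean at or above 9, 27.2% had such a p, and 64 passed the adjusted test lower and 76 higher. The groups did not overlap for 0 of 9 members, beside 2.84% of all genes. At an adjusted p at or below 0.10 there were 2 members (Gngt1 and Cngb1), beside 8.01% of all genes. The call of Gngt1 did not stand up to the loss of single arrays: it was kept in 2 of 12 fits with an array left out, those without control 4 and without diabetic 5. In a bulk retina, fewer rods and less RNA per rod cannot be told apart.

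**Figure D1:**
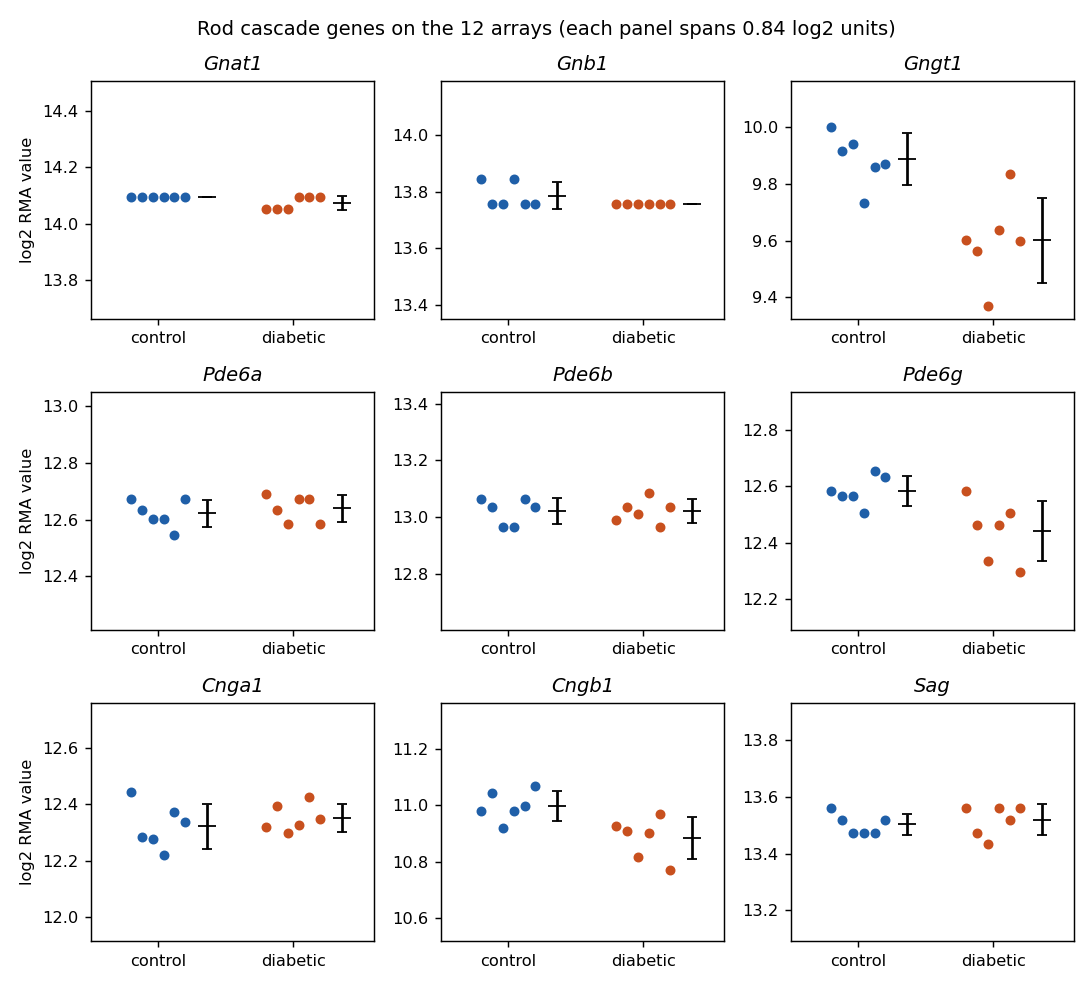
Log2 RMA values of the 9 rod cascade genes (y axis, log2) in 6 control (blue) and 6 diabetic (orange) retinas, 1 point per animal, with the mean and SD of each group in black. Each panel spans the same number of log2 units, and 5 of 6 diabetic retinas lie below all controls for Gngt1, 4 of 6 for Pde6g and 4 of 6 for Cngb1.

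Transducin couples the pigment to the phosphodiesterase. Gngt1 encodes its gamma subunit, which carries the lipid anchor of the beta-gamma pair. Gngt1 ran from 9.73 to 10.002 in controls, with a median of 9.89, and from 9.37 to 9.84 in diabetic retinas, with a median of 9.60. All but 1 of the diabetic retinas lay below every control, and diabetic 5 (9.84) lay above control 4 (9.73), the lowest control. The control mean was 9.89 ± 0.09 and the diabetic mean 9.60 ± 0.15 (SD, n = 6 each), a fall of 1.22-fold (log2 change -0.29 ± 0.07, SE; limma adjusted p = 0.0430). The 95% interval ran from -0.43 to -0.14. Without any single array the change stayed between -0.33 and -0.24. The limma adjusted p ran from 0.0199 (without diabetic 5) to 0.0807 (without control 3). The direction of the change was thus kept in each fit while the call did not last.

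**Figure D2:**
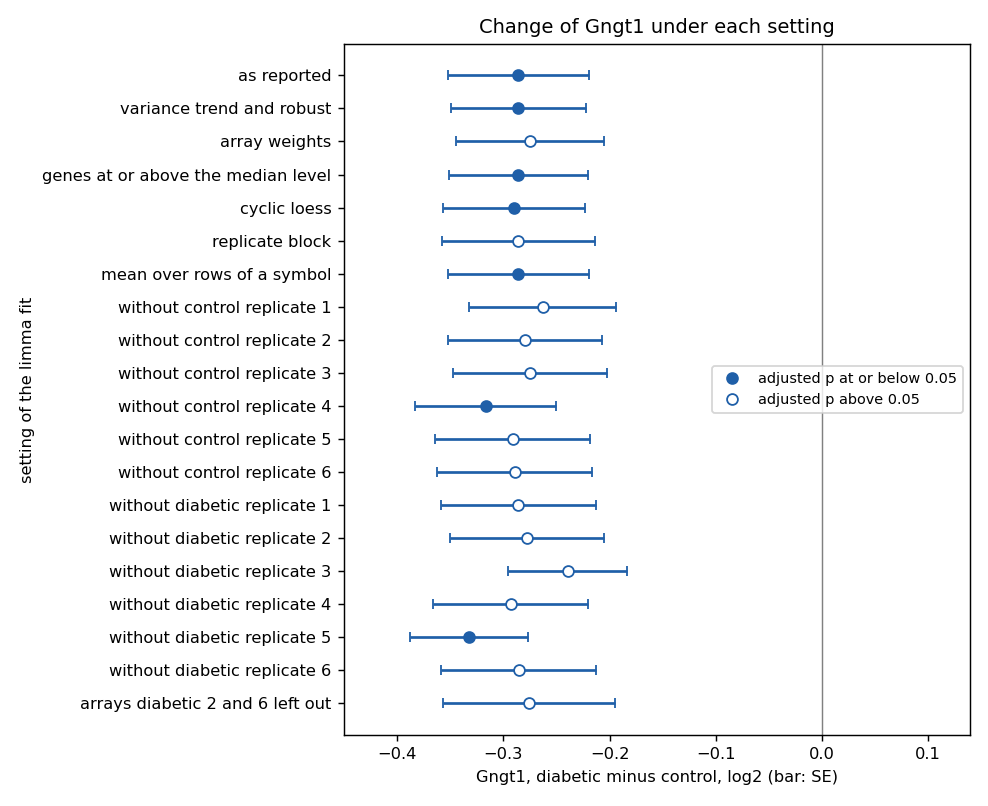
Change of Gngt1, diabetic minus control on the log2 scale (x axis), with its SE, under each setting of the limma fit (y axis). Filled points have an adjusted p at or below 0.05 over all genes and open points do not; all values lie between -0.33 and -0.24.

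The other transducin genes stood at the top of the arrays, where values moved only in fixed steps. All 12 deposited arrays held the same set of sorted values, so a gene's value depended only on its rank, and the highest value was 14.10 on each array. Gnat1, the alpha subunit that activates the phosphodiesterase, ranked 1 on all 6 control arrays and on diabetic 4, 5 and 6, and ranked 2 on diabetic 1, 2 and 3. It therefore took only 2 values, 14.10 and 14.05, and its change of -0.02 ± 0.01 (adjusted p = 0.352) is the step between those 2 ranks on 3 of 12 arrays. Gnb1, the beta subunit, ranked 3 or 4 on all arrays. Its value was 13.85 in controls 1 and 4 and 13.76 in the other 10 retinas (change -0.03 ± 0.02; adjusted p = 0.419). A rise of Gnat1 above rank 1 could not be seen on this scale, and a change of either gene that left its rank in place would not be seen either. With cyclic loess normalization the change was -0.04 for Gnat1 (limma unadjusted p = 0.0159, adjusted p = 0.137) and -0.05 for Gnb1 (unadjusted p = 0.0416, adjusted p = 0.217). Cyclic loess was run on these same deposited values, so it did not undo the limit set by the fixed ranks.

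The phosphodiesterase breaks down cyclic GMP. Its catalytic subunits Pde6a and Pde6b were nearly level between the groups. Pde6a ran from 12.54 to 12.67 in controls (median 12.62) and from 12.58 to 12.69 in diabetic retinas (median 12.65), so that the groups overlapped almost wholly. Its change was 0.02 ± 0.03 (95% interval -0.04 to 0.08; adjusted p = 0.758). Pde6b ran from 12.96 to 13.06 in controls (median 13.04) and from 12.96 to 13.08 in diabetic retinas (median 13.02). Its change was -0.0016 ± 0.03 (95% interval -0.06 to 0.05; adjusted p = 0.982). Both intervals leave out a change of the size seen for Gngt1. They rest on values that depend only on rank, so a change that left the ranks in place would not be seen.

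Pde6g encodes the small inhibitory gamma subunit, which keeps the enzyme silent in the dark. It ran from 12.50 to 12.65 in controls (median 12.57) and from 12.30 to 12.58 in diabetic retinas (median 12.46). Diabetic 2, 3, 4 and 6 lay below every control, with diabetic 6 lowest, diabetic 5 tied with the lowest control, and diabetic 1 lay within the control range. The change of -0.14 ± 0.05 did not pass over all genes (95% interval -0.24 to -0.04; unadjusted p = 0.00899, adjusted p = 0.106).

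The channel carries the dark current. Cnga1, its main pore-forming subunit, ran from 12.22 to 12.44 in controls (median 12.31) and from 12.30 to 12.42 in diabetic retinas (median 12.34), with all diabetic values inside the control range. Its change was 0.03 ± 0.04 (95% interval -0.05 to 0.11; adjusted p = 0.695). Cngb1, the second subunit, which binds calmodulin, ran from 10.92 to 11.07 in controls (median 10.99) and from 10.77 to 10.97 in diabetic retinas (median 10.91). All 6 diabetic retinas lay below the control mean and 4 lay below every control, with diabetic 6 and diabetic 3 lowest. The change of -0.12 ± 0.04 did not pass over all genes (95% interval -0.19 to -0.04; unadjusted p = 0.00717, adjusted p = 0.0949).

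Sag, the arrestin of rods, ran from 13.47 to 13.56 in controls (median 13.50) and from 13.43 to 13.56 in diabetic retinas (median 13.54). It ranked between 5 and 8 on all arrays, and its change was 0.02 ± 0.03 (95% interval -0.04 to 0.07; adjusted p = 0.786). As for Gnat1 and Gnb1, the values near the top moved in a few fixed steps: Sag took 4 different values on the 12 arrays, Pde6a and Pde6b 6 each, and Gngt1, Cnga1 and Cngb1 a different value on each array.

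Whether subunits of 1 complex changed alike was tested on the difference of their log2 values within each array, by exact permutation of the group labels (two-sided, 924 relabelings, smallest possible p = 0.00216). There were 16 pairs, 7 within rod complexes and 9 of a rod gene with its cone counterpart, and p-values were adjusted over these 16. Pde6a minus Pde6g was higher in diabetic retinas by 0.16 ± 0.04 (SE, 95% interval 0.07 to 0.25, exact p = 0.00216, adjusted p = 0.0173). Pde6a alone changed by 0.02 and Pde6g by -0.14 (limma adjusted p = 0.106 over all genes), so this difference mostly holds the change of Pde6g. The difference ran from -0.11 to 0.10 in controls and from 0.11 to 0.29 in diabetic retinas, so that all 6 diabetic retinas lay above all controls. Leaving out any single array (12 runs) kept the call of this pair, and without diabetic 2 and 6 together the difference was 0.15, with the smallest exact p that the remaining 10 arrays allow (0.00476), which after adjustment was 0.0508. Pde6b differed from Pde6g by a similar amount, 0.14 ± 0.05, with an exact p of 0.0433 that missed the threshold after adjustment (0.0989), and with diabetic 1 and 5 inside the control range. Between Pde6a and Pde6b the difference was 0.02 (95% interval -0.06 to 0.10; exact p = 0.621).

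In the channel, Cnga1 minus Cngb1 was higher in diabetic retinas by 0.14 ± 0.05 (exact p = 0.0130, adjusted p = 0.0416). Cnga1 alone changed by 0.03 and Cngb1 by -0.12 (limma adjusted p = 0.0949 over all genes), so this difference mostly holds the change of Cngb1. The difference ran from 1.24 to 1.46 in controls and from 1.39 to 1.58 in diabetic retinas, with all 6 diabetic retinas above the control mean and control 1 (1.46) among the diabetic values. The call was kept in 4 of 12 fits with an array left out. In transducin, Gngt1 was lower relative to Gnat1 (difference 0.26 ± 0.07; exact p = 0.00433, adjusted p = 0.0173) and to Gnb1 (0.26 ± 0.08; exact p = 0.00433, adjusted p = 0.0173). With Gnat1 and Gnb1 held to 2 values each, these differences carry little beyond the change of Gngt1 itself. They kept their calls in 7 and 5 of the 12 single-array runs.

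**Figure D3:**
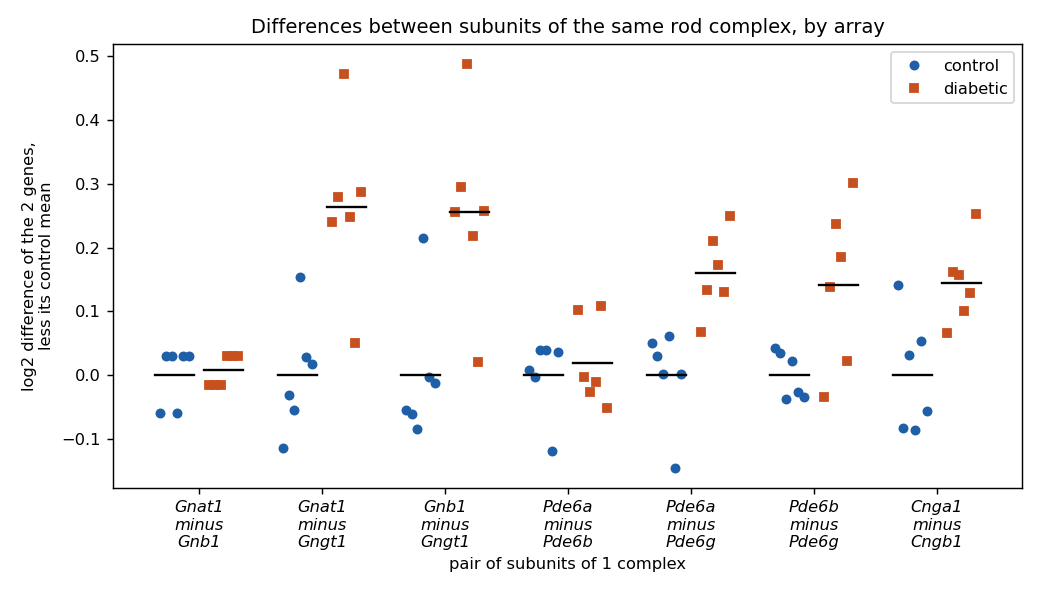
Difference between the log2 values of 2 subunits of the same rod complex on each array, less its mean over controls (y axis, log2 units), for 7 pairs (x axis), with 1 point per animal, controls in blue circles, diabetic retinas in orange squares and group means as black lines. All 6 diabetic retinas lie above all controls for Pde6a minus Pde6g, and 5 of 6 do for Gnat1 minus Gngt1.

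Of the 9 pairs of a rod gene with its cone counterpart, 1 differed in its change past the test. Arrestin parted the rod from the cone gene: cone arrestin, Arr3, fell by 0.30 ± 0.07 (limma adjusted p = 0.0348) while Sag stayed at 0.02 ± 0.03. The difference Sag minus Arr3 ran from 1.94 to 2.25 in controls and from 2.27 to 2.61 in diabetic retinas, without overlap (0.32 ± 0.07; exact p = 0.00216, adjusted p = 0.0173). It kept its call in all 12 single-array runs, and without diabetic 2 and 6 together it was 0.25 (adjusted p = 0.0508). With Sag held to 4 values at ranks 5 to 8, this difference carries little beyond the change of Arr3 itself.

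The genes of the small inhibitory gamma subunits of rods and cones both had changes below 0, as did 6 of 9 members and 6 of 8 cone counterparts. Pde6h, the cone counterpart of Pde6g, ran from 7.58 to 7.79 in controls and from 7.26 to 7.63 in diabetic retinas, with 5 of 6 diabetic retinas below every control (-0.25 ± 0.07; adjusted p = 0.0728). The difference between Pde6g and Pde6h was 0.10 (95% interval -0.06 to 0.27; exact p = 0.193, adjusted p = 0.358). Likewise the second channel subunits Cngb1 (-0.12 ± 0.04) and Cngb3 (-0.16 ± 0.07; adjusted p = 0.241) differed by 0.05 (95% interval -0.14 to 0.24; exact p = 0.591). None of Pde6g, Pde6h, Cngb1 and Cngb3 passed the test over all genes by itself.

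The remaining pairs showed no difference past the test. Gngt1 relative to Gngt2 gave a difference of -0.21 ± 0.08 (exact p = 0.0346, adjusted p = 0.0924). Gngt2, the cone gamma subunit, changed by -0.07 ± 0.03 (limma unadjusted p = 0.0450, adjusted p = 0.226). Its mean was 5.78 in controls, close to the array median of 5.73. Whether changes are compressed at that level was not tested. Cnga3, the cone channel subunit, was as dim (5.75 in controls) and differed between the groups by 0.0013 ± 0.04. Gnat2 (-0.09 ± 0.05; adjusted p = 0.317), Gnb3 (0.04 ± 0.04; adjusted p = 0.685) and Pde6c (-0.05 ± 0.07; adjusted p = 0.732) did not pass, and their differences from Gnat1, Gnb1, Pde6a and Pde6b had exact p-values from 0.201 to 0.587. The 8 cone counterparts held 1 gene past the limma test, beside 3.24% of all genes, and a median change of -0.08. At an unadjusted p under 0.05 there were 3 of the 8, all lower, beside 21.0% of all genes in either direction.

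**Figure D4:**
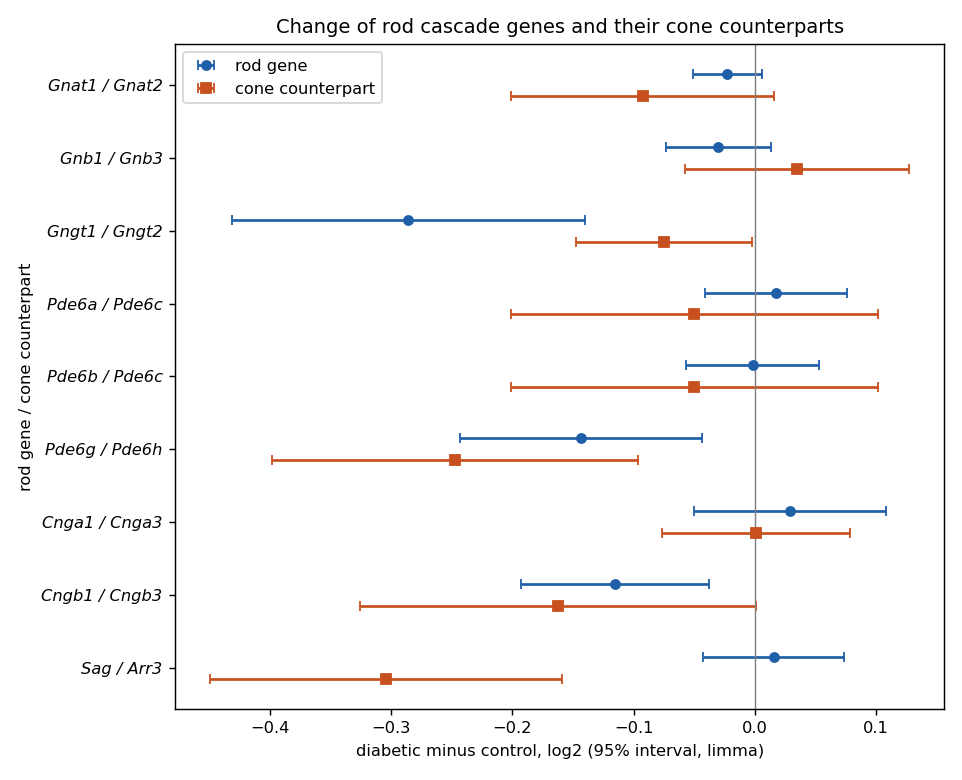
Change of each rod cascade gene (blue circles) and its cone counterpart (orange squares), diabetic minus control on the log2 scale (x axis), with 95% intervals from limma for 6 against 6 retinas. Pde6c is drawn beside both Pde6a and Pde6b; Gngt1 (-0.29) and Arr3 (-0.30) lie farthest below 0, while the intervals of Pde6a, Pde6b, Cnga1 and Sag cover 0.

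Among 19 other genes of rod phototransduction, outer segment structure and rod identity, 0 passed the limma test over all genes, and 5 had an unadjusted p under 0.05, 2 of them lower and 3 higher. That is 26.3% of the 19, beside 21.0% of all genes and 27.2% of the genes with a mean at or above 9. The median change of the 19 was -0.03. Recoverin (Rcvrn), a calcium sensor that inhibits the pigment kinase, had the smallest p (-0.19 ± 0.05; unadjusted p = 0.00311, adjusted p = 0.0666), with 5 of 6 diabetic retinas below every control. Rgs9, which speeds the shutoff of transducin, differed by 0.13 ± 0.04 (adjusted p = 0.10) and its membrane anchor Rgs9bp by 0.15 ± 0.06 (adjusted p = 0.154). The genes of the rod-defining transcription factors, which check that the tissue holds rods, lay well above the array median of 5.73. Nrl averaged 10.27 ± 0.05 (SD, n = 6) in controls and 10.24 ± 0.11 in the diabetic group (adjusted p = 0.797), and Nr2e3 had 11.30 ± 0.05 and 11.27 ± 0.15 (adjusted p = 0.847).

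The correlation of the members from animal to animal differed widely between pairs. With each group's mean taken off, the 36 pairs of members had Pearson correlations over the 12 arrays from -0.258 to 0.757, with a median of 0.231 and 28 above 0. Of the 36 pairs, 15 hold Gnat1 or Gnb1, which take 2 values each. Gnat1 does not vary among controls nor Gnb1 among diabetic retinas, so the correlation of Gnat1 with Gnb1 had to be 0. Pairs with only 1 of them could correlate, and ran from -0.258 (Gnb1 with Pde6g) to 0.563 (Gnat1 with Gngt1). The 21 pairs without Gnat1 and Gnb1 had a median of 0.369, from -0.00125 to 0.757, with 20 above 0. The highest was that of Pde6g with Cngb1 (r = 0.757, permutation p = 0.0131; Spearman's rho = 0.691, permutation p = 0.0222), which was 0.663 without the 2 arrays farthest from the median of Pde6g. After adjustment over the 36 pairs, 0 passed (adjusted p = 0.283 for r and 0.492 for rho of this pair), while 4 had an unadjusted permutation p under 0.05 for r. The 12 values share the arrays and their normalization, and the genes were correlated within the same retinas.

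Among the 12285 genes searched, at or above the median level, the pattern most like that of Gngt1 over the 12 arrays, group means taken off, was that of Gm19466 (r = 0.905) and H2bc4 (r = 0.905). For Cngb1 it was D430019H16Rik (r = 0.946) and Mir5107 (r = 0.910). For Pde6g it was Pom121 (r = 0.909) and Zfp605 (r = 0.899), for Pde6a Vti1a (r = 0.908) and Borcs7 (r = 0.890), and for Pde6b Ino80c (r = 0.902) and Ncoa2 (r = 0.897). For Cnga1 it was Aebp2 (r = 0.919) and Dcpp1 (r = 0.909), and for Sag Lrit2 (r = 0.902) and Eif4a2 (r = 0.881). The values of Gnat1 (Ppwd1, r = 0.921; Tsga10, r = 0.871) and Gnb1 (Grk5, r = 0.891; Iah1, r = 0.879) rest on genes with 2 distinct levels and say little. Of the 18 nearest genes, 3 passed the limma test, all lower in diabetic retinas: D430019H16Rik (-0.22; adjusted p = 0.0126), Dcpp1 (-0.28; adjusted p = 0.0498) and Eif4a2 (-0.30; adjusted p = 0.0104). Over all genes 3.24% passed, and of the 12287 genes at or above the median level 336 passed lower and 294 higher. No other member of the cascade was among the 2 nearest genes of any member. These are the highest of many correlations and are given as a description.

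Markers of other cells and of tissue next to the retina moved between arrays as follows. Of 9 lens genes, 0 passed the limma test, 1 had an unadjusted p under 0.05, and all 9 had values above 0 (median change 0.17). Their summed level, as log2 of the summed linear values, ran from 9.36 to 10.91 in controls and from 9.20 to 12.47 in diabetic retinas, highest in diabetic 6. Of 9 pigment epithelium genes 0 passed the limma test and 1 had an unadjusted p under 0.05. Their summed levels ran from 11.24 to 12.36 in controls and from 11.01 to 12.66 in diabetic retinas, again highest in diabetic 6. Diabetic 6 also had the lowest Pde6g and Cngb1. Diabetic 3 had the next lowest Pde6g and Cngb1 and the lowest Gngt1, while its mean lens and pigment epithelium levels lay inside the control range. Diabetic 2, next highest after diabetic 6 in mean lens level, had the lowest mean pigment epithelium level. The Pde6g and Cngb1 of diabetic 2 lay below every control. Without diabetic 2 and 6, which had the highest lens values, the change of Gngt1 was -0.28 ± 0.08, nearly as large, but its call was lost (limma adjusted p = 0.118). Pde6g changed by -0.11 and Cngb1 by -0.09 in that fit. The bipolar, Mueller glia, ganglion and amacrine cell lists of 8 genes each held 0 genes past the limma test, and 3, 2, 2 and 1 at an unadjusted p under 0.05. Over all genes 21.0% had such a p. The summed levels of the 2 groups overlapped in each of these 4 lists. The cone list of 8 genes, mostly the counterparts above, held 1 gene that passed and fell, Arr3, and 3 at an unadjusted p under 0.05. Its summed levels ran from 13.10 to 13.28 in controls and from 12.97 to 13.16 in diabetic retinas. Of 5 measured horizontal cell genes 1 passed and fell, Septin4, where 3.24% of all genes passed. Of 3 red blood cell genes 0 passed the test and 0 had an unadjusted p under 0.05. The part of these cells in the values of the rod genes was not tested.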

How the data were processed

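The deposited table holds log2 values made by the authors with RMA (robust multi-array average), per the submitters' processing notes; its version, the array type and how probes were grouped are not given in the sources used here. The table has 24973 lines, 1 for each Entrez gene number. The platform annotation named 24015 lines and the RefSeq table of GRCm38.p6 559 more, and 399 lines without a name were left out. For 4 symbols on several lines the brightest line was kept, which left 24570 genes. Sorting each array's values gave the same column 12 times. Changes were tested with limma 3.58.1 (R 4.3.3; lmFit and eBayes, two-sided, no filter), which was tested on simulated data for this comparison of 24570 genes: it found 38.0% of 50 genes shifted 1.1-fold, 80.0% of 50 shifted 1.2-fold and 94.0% of 50 shifted 1.5-fold. Pairs of genes were compared by exact permutation, and correlations were permuted within groups 100000 times. Intervals of pairs are 95% t intervals.

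The members and lists were chosen with earlier results of these data known. The text names the 9 members, 8 cone counterparts, up to 3 other rod genes of smallest p (and Gnb5, chosen after its values were seen), marker genes past the test, rod factors used as a tissue check and the 2 genes nearest to each member. Alternatives covered the variance model, array weights, a filter on dim genes and cyclic loess normalization run on the deposited values. They also covered the replicate number as a block, the threshold, the value per gene and arrays left out. Same-numbered animals were not paired: their deviations correlated from -0.159 to 0.170. Precision is limited by the number of arrays, and signal over background was not analysed here.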

Additional observations from a re-analysis of the deposited data

Results flagged for a closer look

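Among 88 groups of 6 values (named genes, differences between paired genes and means of marker lists), 5 had an extreme retina whose gap to its neighbour, as a ratio to the range of the group, passed Dixon's 95% critical value, where chance flags about 1 in 20. None of the 9 members was among them by its own level. Rgs9 had control 3 low at 12.38 (ratio 0.655) and diabetic 2 high at 12.80 (ratio 0.755). The difference Gnb1 minus Gngt1 was high in control 4 at 4.11 (ratio 0.725), the control with the lowest Gngt1 and 1 of the 2 with the higher value of Gnb1. Control 5 was low for Pde6a minus Pde6b at -0.52 (ratio 0.728) and for Pde6a minus Pde6g at -0.11 (ratio 0.708). Without control 5, Pde6a minus Pde6g still differed between the groups, by 0.13 (exact permutation p = 0.00433, adjusted p = 0.0346).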

How the results depend on the processing

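The number of genes past the limma test, 797, was 506 with the replicate block, 379 without diabetic 2 and 6, 1967 at an adjusted p of 0.10 and 325 to 835 without single arrays. The number of members past it, 1, was 2 at 0.10 (Cngb1 joined) and 0 with array weights (Gngt1 adjusted p = 0.0512), with the replicate block (0.0941) and without diabetic 2 and 6 (0.118), and 0 to 1 without single arrays; 3 members had an unadjusted p under 0.05 in each of these fits. With robust trend, the filter, cyclic loess or row means it stayed at 1, with 5 members at an unadjusted p under 0.05 under cyclic loess, where Gnat1 and Gnb1 joined, and 3 in the other fits. Of the 16 pairs, 5 passed, and 2 to 7 without single arrays. Without diabetic 2 and 6 it was 0, with 4 at an unadjusted p at or below 0.05. With the replicate block, a sign flip over 64 patterns whose smallest p is 0.0312, it was 0 with 4 at that p, a limit of the design.

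Signs turned for values near 0. The change of Pde6b was 0.00081 with array weights and -0.014 to 0.0095 without single arrays. Pde6b minus Pde6c was -0.032 without diabetic 2 and 6 and -0.0013 to 0.091 without single arrays, Gnat1 minus Gnb1 -0.0045 to 0.013, and Pde6a minus Pde6b -0.0046 to 0.034. Gngt1, Pde6g and Cngb1 were below 0 in all 19 alternatives. Cyclic loess moved the median of all genes by 0.0018 and shifted the change of all 9 members downward (-0.0044 to -0.016). The number of arrays and the fixed values of the top ranks limit what can be seen for Gnat1 and Gnb1.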

Other observations

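Rgs9, Rgs9bp and Gnb5 encode the complex that speeds the shutoff of rod transducin. None of them passed limma's test over all genes (adjusted p from 0.10 to 0.176). The differences were 0.13 ± 0.04 for Rgs9 (unadjusted p = 0.00802), 0.15 ± 0.06 for Rgs9bp (unadjusted p = 0.0204) and 0.12 ± 0.05 for Gnb5 (unadjusted p = 0.0273), which was chosen after its values were seen, where 21.0% of all genes had an unadjusted p under 0.05. Above every control lay 3, 4 and 5 of the 6 diabetic retinas, while 1 diabetic retina lay below the control mean for Rgs9bp and 1 for Gnb5.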
